A study of Mus musculus with 12 samples.

Results

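The genes described here mark the epithelial cells of the lung and were read in RNA of a cell population from which epithelial cells had been sorted out. They are 10 of the 52636 gene identifiers counted, chosen by symbol: Sftpc, Sftpa1, Sftpb, Abca3 and Lamp3 for alveolar type 2 cells, Ager, Hopx and Rtkn2 for alveolar type 1 cells, and Scgb1a1 and Scgb3a2 for club cells. All 10 were among the 21440 genes that passed the filter on low counts. The RNA came from lung lymphatic endothelial cells (LECs) of Prox1-EGFP mice, a transgenic line in which the lymphatic transcription factor Prox1 drives a green fluorescent reporter. Live cells were gated as GFP+ and CD31+ and as negative for EPCAM, an adhesion molecule of epithelial cells, and for a cocktail of blood lineage markers. Mice breathed cigarette smoke (CS) for 8 weeks in the acute arm and for at least 24 weeks in the chronic arm, and mice in room air (RA) were the age-matched controls. There were 2 acute RA, 2 acute CS, 3 chronic RA and 5 chronic CS libraries, named by sex and number (F, M, M1 to M4). Each acute library pooled the cells of several mice of 1 condition, while chronic samples were not pooled, so that the spread among acute libraries is that of pools. The labels write 8wk and Aged under age, and the study's methods give the same times as lengths of exposure.

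Alveolar type 2 cells are the cuboidal cells that make, store and secrete pulmonary surfactant, the lipid and protein film that keeps alveoli open, and that renew the alveolar lining. Type 1 cells are broad, thin cells that cover most of the gas exchange surface. Club cells are secretory cells of the conducting airways that release secretoglobins and carry cytochrome P450 enzymes. In bulk RNA, fewer cells of a type and less RNA per cell cannot be told apart.

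The total count ran from 18821438 (chronic CS F) to 56998590 (acute RA F). Levels are given as CPM, read counts scaled to the TMM-adjusted size of each library. Prox1 was at 1042 to 2476 CPM in all 12 libraries, the level of a defining LEC gene. Epcam lay between 0 (chronic CS F) and 16.1 CPM (acute CS F), Cdh1, the E-cadherin gene, between 3.34 and 49.7 CPM, and Foxj1, the regulator of ciliated cells, was at 0 in 5 libraries and at most at 9.27 CPM. In contrast, the 10 lineage genes together held 0.0388% (acute CS M) to 0.881% (acute CS F) of a library's counts.

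Promoter sequence is shown for 4 of the genes because the results turn on which of them moved together: Sftpa1 and Sftpb kept close to Sftpc, the type 1 gene Ager followed them, and Abca3 did not. The windows are the bases before the RefSeq transcription start, on the + strand of GRCm38.p6, up to the first base of any GENCODE exon. RefSeq promoter windows were matched for 6 of the 10 genes (Sftpa1, Sftpb, Abca3, Lamp3, Ager and Hopx). The printed windows lie at chr14:41131538-41131781, chr6:72304360-72304609, chr17:24351773-24351949 and chr17:34597600-34597849. Capitals mark CTCAAG, the core letters of binding sites of NKX2-1 (the lung epithelial transcription factor TTF-1), and TATAAA, the TATA box.
Sftpa1: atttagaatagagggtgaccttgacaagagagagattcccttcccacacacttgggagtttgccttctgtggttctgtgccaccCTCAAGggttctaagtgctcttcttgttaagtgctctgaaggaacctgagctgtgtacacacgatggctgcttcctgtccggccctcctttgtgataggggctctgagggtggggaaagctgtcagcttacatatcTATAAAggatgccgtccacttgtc
Sftpb: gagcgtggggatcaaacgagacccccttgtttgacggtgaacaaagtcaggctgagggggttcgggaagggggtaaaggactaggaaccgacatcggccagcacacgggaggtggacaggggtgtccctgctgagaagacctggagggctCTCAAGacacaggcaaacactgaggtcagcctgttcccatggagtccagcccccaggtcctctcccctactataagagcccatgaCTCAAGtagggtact
Abca3: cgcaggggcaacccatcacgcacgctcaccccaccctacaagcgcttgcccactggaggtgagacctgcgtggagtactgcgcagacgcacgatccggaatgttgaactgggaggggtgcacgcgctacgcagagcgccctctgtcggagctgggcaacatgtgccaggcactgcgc
Ager: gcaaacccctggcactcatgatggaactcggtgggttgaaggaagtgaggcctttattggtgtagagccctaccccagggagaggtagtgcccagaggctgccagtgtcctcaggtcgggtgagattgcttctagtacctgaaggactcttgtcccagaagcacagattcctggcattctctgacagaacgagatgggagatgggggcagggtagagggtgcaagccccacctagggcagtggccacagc

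CTCAAG or its complement CTTGAG stood once in the Sftpa1 window, 166 to 161 bases before the start, and at 2 places in that of Sftpb, 100 to 95 and 15 to 10 bases before it. Over all 32817 promoter windows of 250 bases, 13.3% held this motif on either strand. TATAAA (complement TTTATA), held by 12.4% of windows, stood 30 to 25 bases before the start of Sftpa1. Of the windows not printed, the first of 2 for Hopx held CTTGAG, and that of Lamp3 held TGTTTAC (complement GTAAACA), the letters of a forkhead site, which 3.16% of windows held. None of these motifs was in the windows of Abca3 and Ager. A match describes the letters and is not a bound site.

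Levels are compared between genes per length of exon, as FPKM (CPM divided by the length of a gene's exons in kilobases). Sftpc, the surfactant protein made in type 2 cells alone, had the highest mean in 2 of the 4 groups, at 224 ± 63.4 FPKM (SD, n = 3) in chronic RA and 1437 ± 964 (SD, n = 5) in chronic CS. Scgb1a1, the main secreted protein of club cells, had the highest mean in the acute groups, at 1159 ± 1628 FPKM (SD, n = 2) in acute RA and 2375 ± 3327 (SD, n = 2) in acute CS, each mean resting on its F library. Within single libraries, Sftpc per length was at rank 3 among all genes tested in acute CS F and chronic CS M3, and at rank 360 in acute CS M.

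In chronic CS the order of mean FPKM after Sftpc was Scgb1a1 (439 ± 338), Sftpb (108 ± 101), Sftpa1 (107 ± 78.2), Ager (71.1 ± 37.6), Hopx (23.5 ± 13.3), Abca3 (21.8 ± 3.27), Scgb3a2 (10.02 ± 11.2), Lamp3 (6.15 ± 4.31) and Rtkn2 (2.004 ± 1.22). Neighbours in this order differed by less than the SD of the upper one, except Sftpc and Scgb1a1, Ager and Hopx, and Abca3 and Scgb3a2. In chronic RA the order began with Sftpc (224 FPKM), Scgb1a1 (32.7 ± 46.6), Abca3 (24.1 ± 0.416) and Sftpa1 (19.4 ± 8.08), and ended with Scgb3a2 (0.202 ± 0.270) and Rtkn2 (0.0836 ± 0.0361). Abca3 thus stood at the third place in RA and the seventh in CS with nearly the same level.

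**Figure D1:**
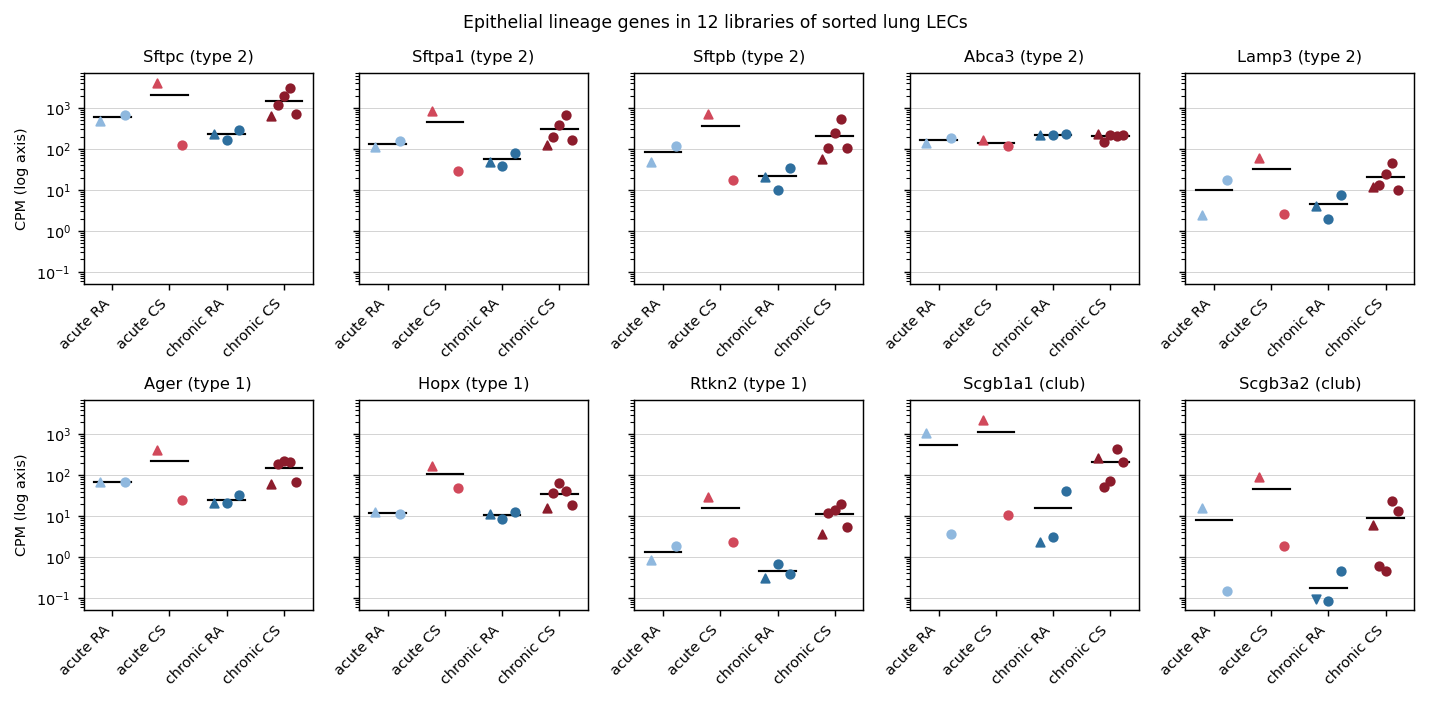
CPM of the 10 epithelial lineage genes (log axis) in the 12 libraries, by group, with F libraries as triangles, M libraries as circles and the group mean as a line; for Scgb3a2 in chronic RA F, at 0, the downward triangle stands at the level of 3 counts. Acute CS F holds the highest value of 9 genes, and Abca3 stays between 116 and 230 CPM.

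Sftpc, Sftpa1, Sftpb and Lamp3 of the type 2 cell genes were at higher levels in all chronic CS libraries than in any chronic RA library, and Abca3 was not. Sftpc was counted at 234, 165 and 296 CPM in chronic RA F, M1 and M2 and at 632, 1158, 1921, 3015 and 705 CPM in chronic CS F, M1, M2, M3 and M4. Sftpa1, a collectin that binds microbes and surfactant lipid, was counted at 46.8, 38.0 and 81.7 CPM against 129, 193, 387, 664 and 162 CPM. For both genes all chronic CS libraries exceeded all RA libraries, with M3 highest and F lowest. Sftpb, whose protein is needed to spread surfactant lipid, gave 20.4, 10.2 and 34.2 CPM against 56.7, 104, 246, 545 and 106 CPM. Lamp3, a membrane protein of the lamellar bodies that store surfactant, gave 4.01, 1.99 and 7.36 CPM against 12.1, 13.0, 23.9, 44.6 and 9.70 CPM. The groups did not overlap for these genes either.

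The log2 fold changes fitted by edgeR were 2.68 (SE 0.90) for Sftpc, 2.47 (SE 0.90) for Sftpa1, 3.29 (SE 1.11) for Sftpb and 2.22 (SE 0.98) for Lamp3. These were 4.64-fold (Lamp3) to 9.79-fold (Sftpb) differences. None passed edgeR's limit of 0.05 over all genes, with adjusted p = 0.357, 0.383, 0.360 and 0.452 in the same order. Abca3, the transporter that loads lipid into lamellar bodies, was counted at 223, 224 and 230 CPM in chronic RA and at 227, 152, 222, 205 and 218 CPM in chronic CS. Its groups overlapped, and its log2 fold change was -0.14 (SE 0.16) with edgeR's adjusted p = 0.785. Reads of Abca3 share exon positions with the opposite-strand transcript D330041H03Rik, and the strand setting of the counting is not given in the sources used here.

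Type 1 cell genes showed the same order of groups. Ager, the receptor RAGE of the type 1 cell's basal membrane, was counted at 21.5, 21.2 and 33.9 CPM in chronic RA and 61.9, 184, 229, 216 and 69.8 CPM in chronic CS. Rtkn2, a gene enriched in type 1 cells, gave 0.313, 0.691 and 0.387 CPM against 3.62, 11.9, 14.6, 20.1 and 5.36 CPM. Hopx, a homeodomain protein without DNA binding, gave 11.03, 8.75 and 12.9 CPM against 16.1, 36.9, 65.9, 41.0 and 18.6 CPM. For all 3 the 5 CS libraries lay above the 3 RA libraries, with F and M4 the lowest of the CS libraries. Rtkn2 had the largest of their log2 fold changes at 4.57 (SE 0.94), or 23.8-fold, and the smallest adjusted p among the lineage genes in this comparison (edgeR, 0.211). Ager differed by 2.58 (SE 0.78) and Hopx by 1.71 (SE 0.51) on the log2 scale, each with edgeR's adjusted p = 0.324.

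Club cell genes were the most uneven. Scgb1a1 was counted at 2.38, 3.08 and 41.2 CPM in chronic RA and at 263, 51.2, 74.2, 449 and 207 CPM in chronic CS, where F, M3 and M4 were high and M1 and M2 near chronic RA M2. Scgb3a2, a secretoglobin of the small airways, was counted at 0, 0.0864 and 0.447 CPM in chronic RA, which were 0, 3 and 15 reads. In chronic CS it was at 5.93, 0.616, 0.457, 23.8 and 13.3 CPM, again with F, M3 and M4 high. The groups did not overlap for either gene, but for Scgb3a2 chronic CS M2 (0.457 CPM) and chronic RA M2 (0.447 CPM) were nearly equal. Fitted log2 fold changes were 3.75 (SE 1.87) and 5.61 (SE 2.10), with edgeR's adjusted p = 0.488 and 0.390. With 1 library left out, that of Scgb1a1 ran from 3.24 (without chronic RA F) to 6.27 (without chronic RA M2) and that of Scgb3a2 from 4.83 (without chronic CS M3) to 7.55 (without chronic RA M2).

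In all, edgeR called 0 of the 10 genes after chronic CS (0% of all genes tested), and 8 had an unadjusted p under 0.05, all with higher levels in CS, against 5.57% of all genes tested. Counted in either direction, 5 of the 10 had such a p without chronic RA F (7.05% of all genes) and 5 without chronic RA M1 (6.98%). In 9 of 10 genes the lowest CS library exceeded the highest RA library, which held for 3.92% of all genes tested. For each of the 9, the exact two-sided permutation test gave p = 0.0357, the smallest that 3 against 5 libraries allow. Fitted levels were higher in CS for 9 of 10, against 51.3% of all genes tested, and the median log2 fold change of the 10 was 2.63 against 0.01 over all genes. DESeq2, which called 2.44% of all genes tested on the same counts, called 5 of them: Sftpb (adjusted p = 0.0404), Ager (0.0309), Hopx (0.0150), Rtkn2 (1.17e-06) and Scgb3a2 (0.0354). Chronic CS F, M1 and M2 had total counts of 18821438 to 22885446 and M3 and M4 of 47494020 and 45436986, and the median was 2.53 with the first set alone and 2.95 with the second.

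Genes of other cell types were counted in the same libraries. In chronic CS, 10 of 11 mesenchyme genes had higher fitted levels (0 called), against 51.3% of all genes tested. Their summed levels were 351 to 682 CPM against 186 to 246 CPM in chronic RA. Of 8 leukocyte genes all 8 were higher (0 called), with sums of 118 to 385 CPM against 107 to 190 CPM, which overlapped. The sum of 7 lymphatic genes ran from 14900 to 21220 CPM in chronic CS and from 19930 to 22930 CPM in chronic RA, also with overlap. Their part in the differences of the epithelial genes was not tested.

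**Figure D2:**
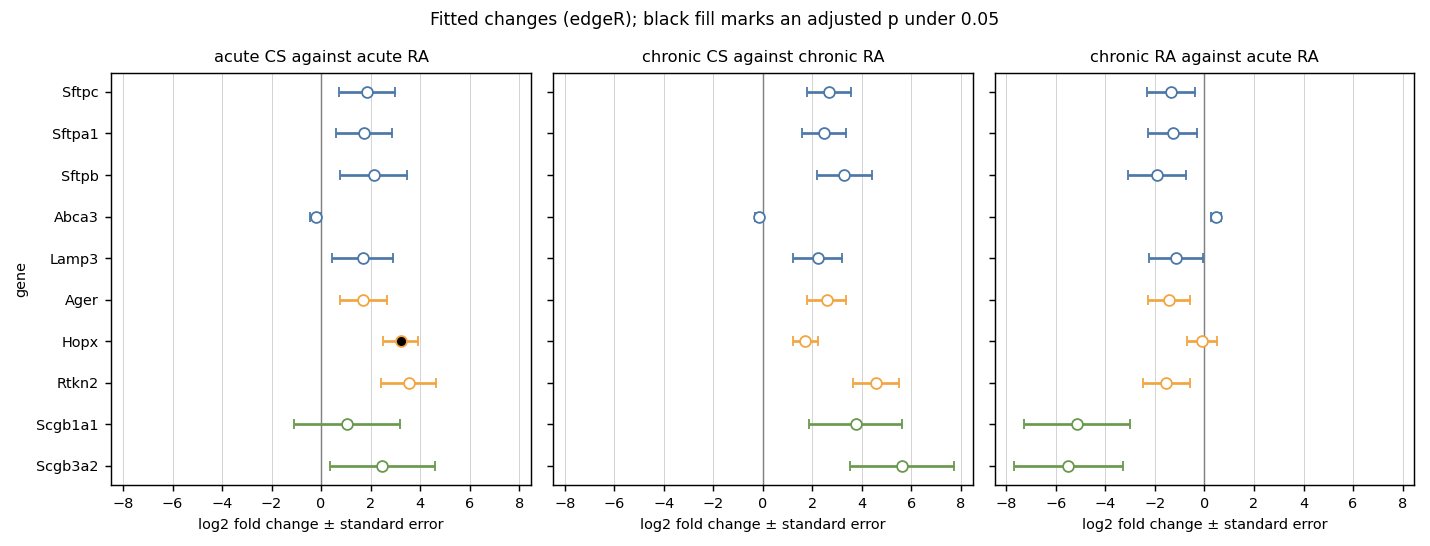
Log2 fold change from edgeR (x axis) of each gene (y axis) in 3 comparisons; bars are standard errors, blue, orange and green mark type 2, type 1 and club cell genes, and black fill an adjusted p under 0.05. Hopx after acute CS (3.22) is the filled point, and in the chronic comparison 9 points lie between 1.71 and 5.61 while Abca3 lies at -0.14.

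After acute CS, Hopx was the lineage gene that passed the test, and most others differed more between the acute CS libraries than between CS and RA. Hopx was counted at 12.3 and 11.1 CPM in acute RA F and M and at 171 and 47.8 CPM in acute CS F and M. Both CS libraries lay above both RA libraries. Hopx rose 9.34-fold, by 3.22 (SE 0.70) on the log2 scale, with edgeR's adjusted p = 0.0296. It was the 1 of 10 genes called, against 3.47% of all genes tested. The call was lost when the acute groups were fitted alone (edgeR's adjusted p = 0.115), with sex as a covariate (0.0506), and without acute RA F (0.204), acute RA M (0.246) or acute CS F (0.252). The log2 fold change of Hopx was 2.03 without acute CS F and 3.87 without acute CS M. Hopx shares exons with the antisense transcript Hopxos, which had at most 58 reads in a library.

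Rtkn2 also lay above RA in both CS libraries, at 29.4 and 2.30 CPM against 0.845 and 1.87 CPM. Its log2 fold change was 3.54 (SE 1.11), with edgeR's adjusted p = 0.127 and DESeq2's adjusted p = 0.00546, where DESeq2 called 9.15% of all genes. Without acute CS M it was 4.43 and passed edgeR's limit (adjusted p = 0.0265), and without acute CS F it was 0.76 (adjusted p = 0.914). These 2 type 1 genes were the 2 of 10 whose acute CS libraries lay wholly above RA, which held for 27.4% of all genes tested. Ager, the other type 1 gene, was at 69.4 and 67.4 CPM in acute RA and at 424 and 25.01 CPM in acute CS, high in F and below RA in M.

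The surfactant genes split the same way as Ager. Sftpc was at 493 and 686 CPM in acute RA F and M and at 4139 and 128 CPM in acute CS F and M. Sftpa1 was at 115 and 156 CPM against 866 and 29.5 CPM. Sftpb was at 48.9 and 116 CPM against 698 and 17.6 CPM. In each case acute CS F was the highest and acute CS M the lowest of the 4 acute libraries. Lamp3 gave 2.48 and 17.2 CPM against 60.4 and 2.65 CPM, and Abca3 138 and 189 CPM against 168 and 116 CPM. For Lamp3 acute RA F, not acute CS M, was the lowest, and Abca3 had a narrow range. Fitted log2 fold changes of these 5 ran from -0.21 (Abca3) to 2.12 (Sftpb) and that of Ager was 1.71, with edgeR's adjusted p from 0.454 (Ager) to 0.777 (Abca3).

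Between the sexes, acute CS over acute RA differed in sign for 6 of the 10 genes (Sftpc, Sftpa1, Sftpb, Abca3, Lamp3 and Ager), all higher in F and lower in M. Over all genes tested 16.8% showed that pattern. With 1 library per sex and treatment, sex and library cannot be told apart.

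Among the acute libraries, club cell genes differed more between F and M than between CS and RA of the same sex. Scgb1a1 was at 1100 CPM in acute RA F and 2250 CPM in acute CS F, and at 3.59 and 10.8 CPM in acute RA M and acute CS M. Scgb3a2 was at 16.2 and 88.8 CPM in the F libraries and at 0.151 and 1.91 CPM in the M libraries. Both genes were high in both F libraries and low in both M libraries. The difference between sexes was not seen for Scgb1a1 in chronic RA, where F was at 2.38 CPM and M2 at 41.2 CPM. The log2 fold changes after acute CS were 1.03 (SE 2.13) and 2.47 (SE 2.12), with edgeR's adjusted p = 0.913 and 0.689.

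After acute CS 9 of the 10 genes had higher fitted levels, against 53% of all genes tested, and 2 (Hopx and Rtkn2) had an unadjusted p under 0.05 by edgeR, against 10.7% in that direction. Counted in either direction, 7 had such a p without acute CS M (15% of all genes), and 3 without acute CS F (10.3%) or acute RA F (10.8%). The median log2 fold change was 1.79 against 0.04 over all genes. It was -2.0 without acute CS F. The leukocyte list moved with treatment in both acute CS libraries. By edgeR 8 of 8 genes rose (by p, Coro1a, Rac2, Lcp1, Cd52, Laptm5 and Cd53 first). Its summed levels were 1627 to 2275 CPM against 126 to 133 CPM in acute RA. Over all genes tested, edgeR called 3.47% in either direction, the share for this and the next lists. Of 12 blood endothelium genes 6 rose (Vwf, Cd93, Ptprb, Aplnr, Ednrb and Tek), with summed levels of 10600 to 12230 against 7518 to 8773 CPM. On this list 9 genes lay wholly above RA and 2 wholly below. These 2 were Kdr, with a mean of 1832 against 2398 CPM, and Cldn5, with 1991 against 2113 CPM. Of 11 mesenchyme genes 6 rose (Pdgfrb, Col3a1, Col1a1, Lum, Acta2 and Dcn), with summed levels of 955 to 1351 against 363 to 386 CPM. Of 7 lymphatic genes 3 fell (Prox1, Flt4 and Nrp2), with a sum of 6485 to 9821 CPM against 15250 to 17070 CPM. On this list 6 genes lay wholly below RA. Lyve1 lay wholly above, at means of 777 CPM in acute CS and 489 CPM in acute RA, and was not called. Of 11 alveolar macrophage genes 10 lay wholly above RA (3 called higher and 1, Mrc1, lower), against 27.4% of all genes tested. The sums were 2505 to 2798 CPM against 714 to 812 CPM. Mrc1 alone had a mean of 647 CPM in acute RA and 338 CPM in acute CS. The erythroid genes split between the acute CS libraries in the opposite direction to the surfactant genes, with a sum of 10.7 CPM in F and 698 CPM in M against 37.7 and 69.9 CPM in acute RA. F lay below both RA libraries for 5 of 6 erythroid genes and M above both for 6 of 6. For a single CS library, the share over all genes was not counted. Both CS libraries lay above both RA libraries for 1 of 6, against 27.4% of all genes tested. The part of the genes of other cell types in the levels of the epithelial genes was not tested.

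**Figure D3:**
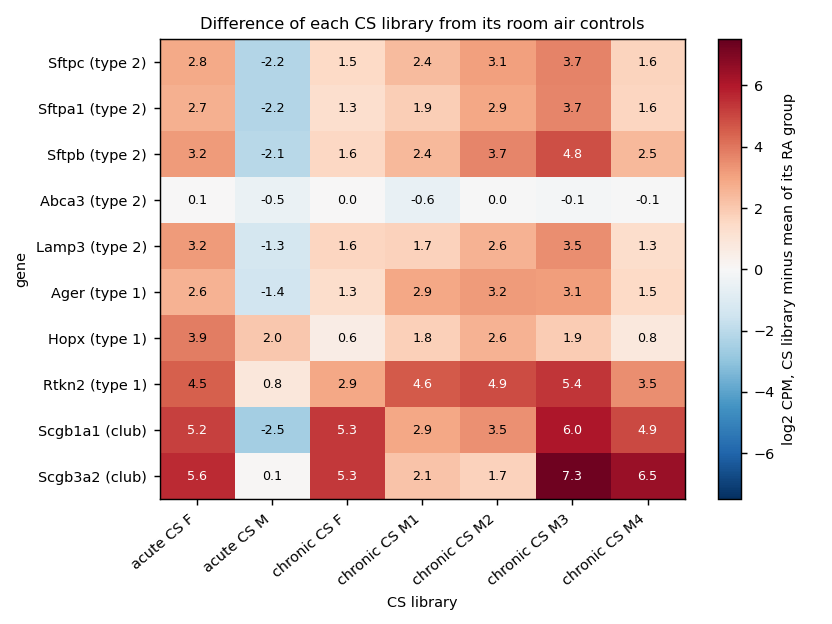
Difference in log2 CPM of each CS library (x axis) from the mean of its RA group, for the 10 genes (y axis); red is higher than RA and blue lower. Acute CS F is above its RA mean for 10 genes and acute CS M for 3, while each chronic CS library is above for 9 or 10.

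In room air, 9 of the 10 genes had lower fitted levels in the chronic than in the acute libraries, against 49.8% of all genes tested. The RA libraries compared here are the controls of the comparisons above. Sftpc at 165 to 296 CPM in chronic RA lay below 493 and 686 CPM in acute RA, and Ager at 21.2 to 33.9 CPM lay below 67.4 and 69.4 CPM. Chronic RA lay wholly below acute RA for 5 genes (Sftpc, Sftpa1, Sftpb, Ager and Rtkn2), as it did for 17% of all genes tested, and Abca3 lay wholly above. The log2 fold changes of the 5 ran from -1.93 (Sftpb) to -1.28 (Sftpa1). None of the 10 was called, nor was any other gene tested (0%), and 3 had an unadjusted p under 0.05 by edgeR, against 7.01% of all genes. DESeq2 called 0 of the 10 and 1.18% of all genes. The 3 were Scgb1a1 and Scgb3a2, lower in chronic RA, and Abca3, higher by 0.46 (SE 0.21). Without acute RA F, the log2 fold changes of Scgb1a1 and Scgb3a2 were 2.11 and 0.24, and 0 of the 10 had an unadjusted p under 0.05 (3.74% of all genes in that fit). That count was also 0 without chronic RA F (5.5%) or chronic RA M1 (5.18%). The exact permutation test cannot go below p = 0.2 here. Pooling of the acute mice and length of housing go with the groups, so they cannot be told apart.

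The acute and chronic effects of CS on the 10 genes were compared in 1 fit. The acute log2 fold change was below the chronic one for 9 of the 10 genes (47.7% of all genes tested), with a median difference of -0.84 on the log2 scale, and above it for Hopx by 1.51 (SE 0.81). None passed edgeR's limit (adjusted p from 0.512 for Hopx to 0.970 for Abca3), against 0.452% of all genes, and 0 had an unadjusted p under 0.05, against 11.9% of all genes. DESeq2 called 0 of the 10 and 4.29% of all genes. The median difference was -4.39 without acute CS F, with 7 of the 10 at an unadjusted p under 0.05 (9.39% of all genes in that fit), and 0.09 without acute CS M. The standard errors of this difference ran from 0.28 (Abca3) to 2.79 (Scgb3a2).

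Ratios between the lineage genes show how far each class moved as a unit. Sftpc per length stood at 10 to 16.6 times Sftpa1 in all 12 libraries, a 1.66-fold range, while Sftpc itself ranged 32.4-fold. Sftpc over Sftpb ran from 10.5 to 30.7 and Sftpc over Ager from 10.6 to 28.8, so the type 1 gene kept to Sftpc about as closely as Sftpb did. Sftpc over Lamp3 ran from 129 to 644. Sftpc over Abca3 ran from 6.69 (chronic RA M1) to 224 (acute CS F), close to the range of Sftpc, since Abca3 ranged 1.99-fold. Lpcat1 and Etv5, other type 2 cell genes singled out after their values were seen, ran from 136 to 236 CPM and from 27.3 to 62.96 CPM over the 12 libraries.

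Among type 1 genes, Ager over Hopx lay between 1.38 and 4.30 in 11 libraries and at 0.371 in acute CS M, where Hopx was high and Ager low. Ager over Rtkn2 lay between 79.5 and 226 in the 5 RA libraries and between 27.9 and 44.2 in the 7 CS libraries, without overlap, although Rtkn2 had only 10 to 24 reads in the chronic RA libraries. Sftpc over Scgb1a1 ran from 0.206 (acute RA F) to 87.9 (acute RA M), a 426-fold range. The club genes also differed between themselves, with Scgb1a1 over Scgb3a2 from 10.4 (acute CS M) to 300.2 (chronic CS M2) in the 11 libraries with reads of both.

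**Figure D4:**
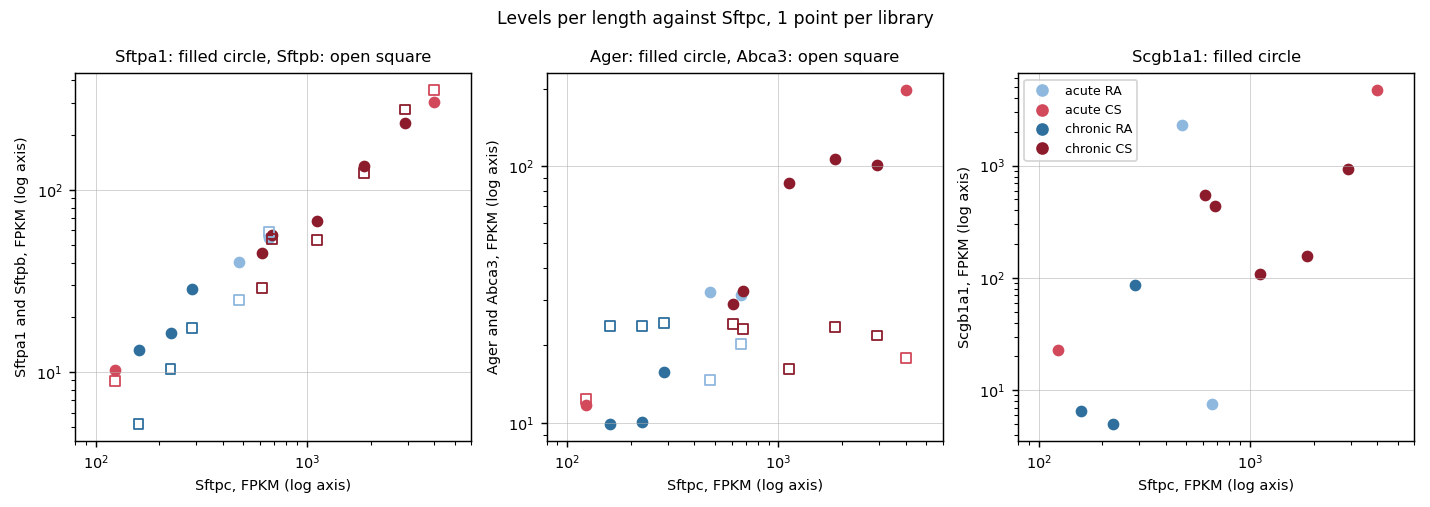
FPKM of Sftpa1 and Sftpb (left), Ager and Abca3 (middle) and Scgb1a1 (right) against FPKM of Sftpc, log axes, 1 point per library coloured by group. Sftpa1, Sftpb and Ager lie along a line, Abca3 is flat between 12.3 and 24.6 FPKM, and Scgb1a1 scatters.

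Across the 12 libraries, Pearson's r of log2 CPM was 0.994 for Sftpc with Sftpa1, 0.979 with Sftpb, 0.925 with Lamp3 and 0.972 with Ager. Between 2 type 2 genes it had a median of 0.926 and a lowest value of 0.0457 (Sftpb with Abca3). Between type 1 and type 2 genes the median was 0.814, and between club genes and either alveolar class 0.593 and 0.597. Scgb1a1 and Scgb3a2 had r = 0.924 with each other. Abca3 had r from -0.341 (Hopx) to 0.219 (Lamp3). These are descriptions over n = 12 libraries that share groups, preparation and pooling.

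The summed FPKM of the 10 genes was made up differently from library to library. Type 2 genes held 19.0% of it in acute RA F and 94.5% in acute RA M, and club genes held 79.6% and 0.909%. Type 1 genes held 1.39% to 7.60% in 11 libraries and 19.5% in acute CS M. In chronic CS the club share was 42.6% in F, 34.3% in M4, 21.3% in M3 and 7.32% and 6.36% in M1 and M2. In chronic RA it was 1.67%, 2.92% and 18.5%, so that the groups overlapped.

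**Figure D5:**
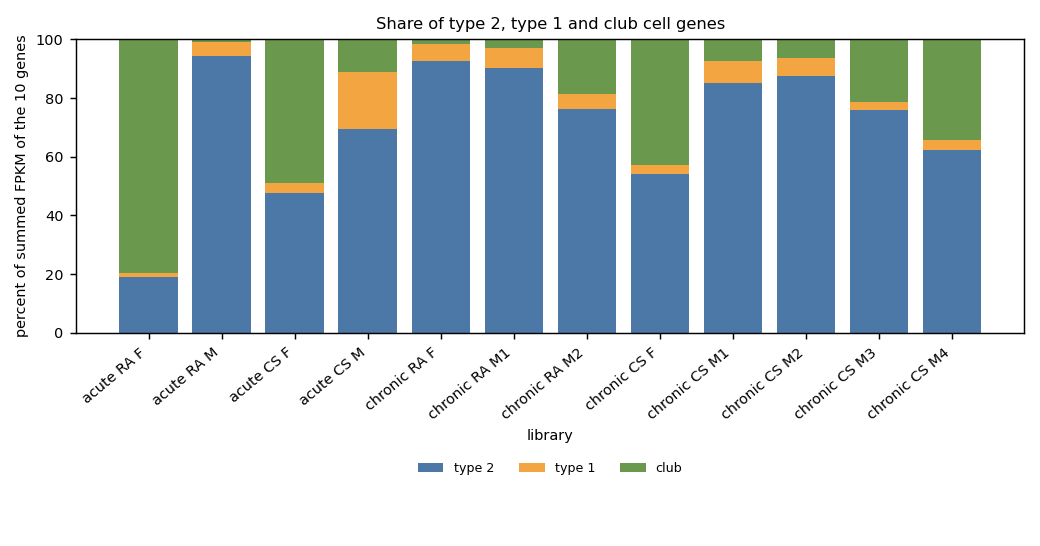
Percent of the summed FPKM of the 10 genes (y axis) held by type 2, type 1 and club cell genes in each library (x axis). The club share reaches 79.6% in acute RA F and is 0.909% in acute RA M, both in room air.

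The genes most like Sftpc over the 12 libraries, with the 10 genes themselves left out, were Cldn3 (r = 0.977), Slc34a2 (0.974), S100g (0.974), Sftpd (0.973), Nkx2-1 (0.971), Cldn18 (0.965), Aff1 (0.962) and Krt7 (0.953). Slc34a2 is the phosphate transporter of type 2 cells, Sftpd a surfactant collectin, and Cldn3 and Cldn18 tight junction proteins. For Ager the list was Cldn18 (0.985), S100g (0.974), Krt7 (0.965), Sftpd (0.962), Cldn3 (0.961), Cyp2b10 (0.961), Wfdc2 (0.960) and Aff1 (0.959). Of the 8 genes, 6 were on both lists. Scgb1a1 had a separate list: Cyp2f2 (0.919), Cbr2 (0.889), Far1 (0.885), Krt8 (0.884), Ces1d (0.880), Gm15788 (0.878), Hp (0.876) and Retnlg (0.874). Cyp2f2 is the cytochrome P450 and Cbr2 a carbonyl reductase of club cells. Sftpc had r = 0.900 with Cdh1 and 0.491 with Epcam, 0.378 with Chil3, an alveolar macrophage gene, 0.378 with Ptprc, the leukocyte antigen CD45, and -0.183 with Prox1.

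Other epithelial genes, listed by cell type, were also mostly higher after chronic CS, but smaller parts of these lists lay wholly above RA. Over all genes tested, 51.3% were higher and 5.57% were higher with an unadjusted p under 0.05 by edgeR. Of the further type 2, type 1 and club genes, 8 of 16, 9 of 16 and 2 of 10 lay wholly above RA. That held for 9 of the 10 lineage genes and 3.92% of all genes tested. Of 16 further type 2 genes, 14 had higher fitted levels after chronic CS (0 called, 7 with an unadjusted p under 0.05 by edgeR), with a median log2 fold change of 2.0. Sftpd was at 7.08 to 9.15 CPM in chronic RA and 12.8 to 67.5 CPM in chronic CS. Of 16 further type 1 genes, all 16 were higher (0 called, 11 with an unadjusted p under 0.05), with a median of 2.38. Aqp5, the water channel of type 1 cells, was at 0.0313 to 2.47 CPM in chronic RA and 6.35 to 33.4 CPM in chronic CS. Of 13 further club and goblet genes 10 were tested, and all 10 were higher (0 called, 5 with an unadjusted p under 0.05), with a median of 3.60. Cyp2f2 was at 0.547 to 6.26 CPM in chronic RA and 5.99 to 46.5 CPM in chronic CS, with overlap.

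General epithelial genes were low. Of 21, 20 were tested and 19 were higher after chronic CS (0 called), against 51.3% of all genes tested. Their summed level was 12.7 to 32.2 CPM in chronic RA and 41.2 to 173.7 CPM in chronic CS. In the acute arm it was 28.9 to 53.9 CPM in RA and 128.5 to 402 CPM in CS. Most of the 128.5 CPM of acute CS M came from Krt19 (75.0 CPM) and Ocln (35.5 CPM). In that library 7 of 20 genes lay above both acute RA libraries and 6 below both. Nkx2-1 was at 0.251 to 0.805 CPM in chronic RA and 2.42 to 11.3 CPM in chronic CS, without overlap. Sftpc per length stood at 118 to 3720 times Epcam in the 11 libraries with Epcam reads. Of 14 ciliated cell genes 13 were tested and 11 were higher after chronic CS (0 called), with a median of 0.82, and of 10 basal and neuroendocrine genes 8 were tested, 6 were higher (0 called), and the sum reached at most 12.7 CPM in any library.

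After acute CS the fitted levels of 15 of the 16 further type 2 genes were higher, but the libraries differed: acute CS F lay above both acute RA libraries for all 16, and acute CS M lay above both for 3 and below both for 12. Ctsh, a protease that processes surfactant protein B, rose from a mean of 71.7 to 213 CPM (edgeR, adjusted p = 0.00824). It was at 168 CPM in F and 257 CPM in M, and is also listed among surfactant turnover genes of macrophages. Fitted levels of all 16 further type 1 genes were higher, with acute CS F above both acute RA libraries for 16, and acute CS M above both for 6 and below both for 7. Emp2, a membrane protein of type 1 cells, rose from a mean of 62.6 to 620 CPM (edgeR, adjusted p = 0.0188), at 971 CPM in F and 269.8 CPM in M. Ctsh and Emp2 were above RA in both acute CS libraries, as Hopx was. Of the further club, ciliated and general epithelial genes none was called by edgeR after acute CS, and 4, 0 and 5 were higher with an unadjusted p under 0.05. Of these genes, acute CS F lay above both acute RA libraries for 10 of 10, 9 of 13 and 20 of 20, and below both for 0, 2 and 0. Acute CS M lay above both acute RA libraries for 2 of 10, 3 of 13 and 7 of 20, and below both for 2, 4 and 6. For a single CS library, the share over all genes was not counted. Both acute CS libraries lay above both RA libraries for 27.4% of all genes tested. On the further type 2, type 1, club, ciliated and general epithelial lists, that held for 3, 6, 2, 2 and 7 genes.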

How the data were processed

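The authors sorted LECs, prepared libraries with the SMART-Seq v4 and Nextera XT kits and sequenced polyadenylated RNA. Per the labels and the study's methods, reads were aligned to GRCm38 with STAR, whose GeneCounts mode gave the deposited read counts per Ensembl gene, without normalization. The annotation release, the strand setting and the handling of reads from near-identical copies beyond that mode are not given in the sources used here. FastQC 0.11.9 is also named in the submitters' processing notes.

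GENCODE M21 gave symbols, positions and exon lengths, and lacked 147 of the identifiers, with at most 0.011% of the counts in a library. Counts of all 12 libraries were fitted by group in edgeR 4.0.16 (R 4.3.3; filterByExpr, TMM, quasi-likelihood F-test), with p-values adjusted over 21440 genes (Benjamini-Hochberg, limit 0.05); DESeq2 1.42.0 was an alternative. Log2 CPM used a prior count of 2, and FPKM used the union of exons. Scripts were tested on simulated data. For single values, exact permutation tests over libraries were two-sided; with 2 acute libraries a group the smallest possible p is 0.333. A count of 3 was the floor, which covers counting error only. Acute libraries are pools, and nothing else states which mice gave a library, so p-values measure the spread between these libraries. No libraries were duplicates by a chi-square comparison.

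The genes and lists were chosen with earlier results of these data known. Named were all 10 lineage genes, from each other list the called genes (at most 6), fixed defining markers, and the 8 genes most like Sftpc, Ager and Scgb1a1. Alternatives left out TMM factors, the filter, the other groups or each library in turn, added sex or a replicate block, used robust dispersions, or split the chronic CS libraries by depth.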

Additional observations from a re-analysis of the deposited data

Results flagged for a closer look

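Among the 5 chronic CS libraries, M1 had an Abca3 level of 151.8 CPM, apart from the other libraries (205 to 227 CPM) by a gap of 0.746 of the group's range on the log2 scale, above Dixon's critical value of 0.71. On the CPM scale the gap was 0.707 of the range, below that value. The same check was run in 10 groups of values, 1 per gene in chronic CS, and chance flags about 1 in 20 groups. In M1 the other type 2 genes were not the lowest of the group.

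For 6 genes the acute CS library lay above its RA library in F and below it in M. On the log2 scale (CPM plus 0.1), F minus M of these differences was 5.50 for Sftpc (3.07 in F and -2.43 in M), 5.31 for Sftpa1, 6.55 for Sftpb, 7.21 for Lamp3, 4.03 for Ager (2.61 and -1.43) and 0.99 for Abca3 (0.28 and -0.71). The difference was not tested, as there was 1 library per sex and treatment. Among the other 4 genes both sexes were higher after CS, by 3.78 and 2.10 for Hopx, 4.97 and 0.28 for Rtkn2, 1.03 and 1.56 for Scgb1a1 and 2.44 and 3.0 for Scgb3a2 in F and M.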

How the results depend on the processing

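After acute CS, the number of lineage genes called (1) became 2 with DESeq2 and 0 with the acute groups fitted alone, with sex as a covariate and with the replicate block, and lay between 0 and 2 over libraries left out in turn (2 without acute CS M). The median log2 fold change (1.79) lay between -2.0 and 2.75, the lowest without acute CS F. After chronic CS the number called (0) became 5 with DESeq2 and 0 in every other alternative, and the median (2.63) lay between 2.35 and 2.88 over libraries left out. The median difference of effects (-0.84) lay between -4.39 and 0.09. The cause of these shifts was not tested.

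With a library left out, log2 fold changes changed sign for some genes. After acute CS they ran from -2.21 to 2.81 (Sftpc), -2.20 to 2.68 (Sftpa1), -2.23 to 3.08 (Sftpb), -1.90 to 3.61 (Lamp3), -1.45 to 2.63 (Ager), -5.68 to 8.30 (Scgb1a1), -2.10 to 8.20 (Scgb3a2) and -0.50 to 0.04 (Abca3). In chronic against acute RA they ran from -7.67 to 2.11 (Scgb1a1), -7.44 to 0.24 (Scgb3a2), -1.95 to 0.82 (Lamp3) and -0.26 to 0.01 (Hopx). The difference of effects ran from -9.43 to 4.55 (Scgb1a1), -7.71 to 2.59 (Scgb3a2), -4.11 to 1.38 (Lamp3), -4.89 to 0.13 (Sftpc), -4.67 to 0.21 (Sftpa1), -4.03 to 0.05 (Ager) and -0.36 to 0.18 (Abca3). After chronic CS none of the 10 changed sign in any alternative run. Acute groups left with 1 library were assumed to vary like the others. Of 590 values of single genes under the alternatives, 555 kept direction and side of the limit.

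Genes called over the whole table were 745 after acute CS, and 1961 with DESeq2, 139 with the acute groups alone, 73 with the replicate block, and 2 to 867 over libraries left out. After chronic CS they were 0, and 524 with DESeq2, 10 without the filter, 16 with M3 and M4 alone and 1 with F, M1 and M2. For RA they were 0, and 253 with DESeq2, 42 with the groups alone and 6 without the filter. For the difference they were 97, and 920, 191 without the filter, 21 with sex, 0 with the block and 0 to 262 over libraries left out.

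Same-numbered libraries did not deviate together (r of -0.0419 to 0.0693), so the numbers do not pair them. With the replicate block Hopx after acute CS lost its call (log2 fold change 2.95, edgeR's adjusted p = 0.100), and chronic CS M3 and M4 gave no information. After chronic CS 4 of the 10 genes had an unadjusted p under 0.05 with it, against 8 without. No block was run for RA, which shares none. At the lowest depth, 3 reads were 0.158 CPM.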

Other observations

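Macrophages of the alveoli take up and break down surfactant. Of 10 genes listed for this turnover, 4 rose after acute CS (edgeR, which called 3.47% of all genes tested in either direction). Csf2ra and Csf2rb, which encode the GM-CSF receptor, rose from means of 8.19 to 99.1 CPM and 2.61 to 58.9 CPM. Adgrf5, a receptor that limits the surfactant pool, rose from 545 to 1317 CPM. The remaining gene was Ctsh, which is also on the type 2 list. Adgrf5 was at 532 and 557 CPM in acute RA, where Marco of the same list was at most at 1.47 CPM. In acute CS Adgrf5 was at 1815 CPM in F and 818 CPM in M. Which cells held Adgrf5 was not tested. After chronic CS 0 of the 10 turnover genes were called, 5 were higher and 5 lower. For Csf2ra the acute effect exceeded the chronic one by 2.83 (SE 0.52; edgeR, adjusted p = 0.0471) on the log2 scale.

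Transitional alveolar cells are an intermediate between type 2 and type 1 cells. Of 11 genes listed for them, Lgals3 rose after acute CS from a mean of 13.6 to 291 CPM (edgeR, adjusted p = 0.0214). Nupr1 fell from 84.4 to 45.8 CPM (edgeR, adjusted p = 0.0286), and 0 were called after chronic CS. After acute CS 8 of the 11 lay wholly above RA, against 27.4% of all genes tested. Lgals3 was at 281 and 300 CPM in the acute CS libraries, while Krt8 ran from 0.889 to 29.2 CPM and overlapped RA. Which cells held these transcripts was not tested. The list shares Krt8, Krt19 and Cldn4 with the general epithelial list. Of 11 alveolar macrophage genes Ear2, Itgax and Car4 rose after acute CS and Mrc1 fell. After chronic CS 0 were called and 10 of 11 were higher, against 51.3% of all genes tested. The sums were 696 to 1072 CPM against 628 to 720 CPM in chronic RA. Of 6 erythroid genes tested 0 were called in either comparison. Sums of the erythroid list were 10.7 and 698 CPM in acute CS F and M against 37.7 and 69.9 CPM in acute RA, and ran from 9.69 to 349 CPM in chronic CS and from 196 to 433 CPM in chronic RA.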
